A study of Mus musculus with 10 samples.

Results

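The 10 genes described here, which mark inhibitory interneurons, were followed in RNA from hippocampal synaptoneurosomes, a brain fraction rich in detached synaptic endings that have closed again. They were the 10 rows, of 22255 in the gene count table, whose Ensembl identifier belongs to Gad1, Gad2, Pvalb, Sst, Vip, Cck, Npy, Calb2, Reln or Lhx6. The rule names the genes and uses no measured value, though the list was drawn up with earlier results of these data known. All 10 genes had counts in every library, from 290 counts for Lhx6 to 10461 for Gad1, and all 10 passed the filter on low counts. The tissue came from wild-type C57Bl/6J mice given vehicle (5 libraries, replicates 1 to 5) or AM6545 (5 libraries, replicates 1 to 5) on a sub-chronic schedule. AM6545 is a cannabinoid CB1 receptor antagonist that enters the brain poorly. Dose, duration, age, sex and the number of animals behind a library are not given in the sources used here, so p-values measure the spread between these libraries, which may be technical. The comparison asked whether synaptic RNA of interneurons differed after the drug.

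Interneurons release GABA, which the glutamate decarboxylases encoded by Gad1 and Gad2 make from glutamate. In the hippocampus they fall into classes that contact different parts of the pyramidal cell. Parvalbumin cells contact the soma and axon initial segment, many somatostatin cells contact distal dendrites, cholecystokinin basket cells carry the CB1 receptor on their terminals, and many cells with vasoactive intestinal peptide or calretinin contact other interneurons. Several of the markers are shared with other cells: Calb2 also marks mossy cells of the mouse dentate hilus and is high in parts of the thalamus, Cck is also made by pyramidal neurons, and Reln is also made by Cajal-Retzius cells. In bulk RNA, fewer cells of a type and less RNA per cell cannot be told apart.

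The peptide genes Sst, Vip, Cck and Npy and the parvalbumin gene are shown by the 120 bases before a start site, because 4 of these 5 genes varied together over the libraries. Sequences are from RefSeq (GRCm38.p6), 5′ to 3′ on the gene's strand. Capitals mark the cyclic AMP response element TGACGTCA, its shorter core TGACG read on either strand (CGTCA where it lies on the opposite strand) and the TATA box TATAAA. The windows are chr16:23890845-23890964 on the minus strand for Sst, chr10:5639098-5639217 on the plus strand for Vip, chr9:121495695-121495814 on the minus strand for Cck, chr6:49822590-49822709 on the plus strand for Npy and chr15:78206401-78206520 on the minus strand for Pvalb.
Sst: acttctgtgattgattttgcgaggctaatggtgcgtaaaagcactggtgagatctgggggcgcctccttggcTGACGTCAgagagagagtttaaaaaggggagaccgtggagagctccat
Vip: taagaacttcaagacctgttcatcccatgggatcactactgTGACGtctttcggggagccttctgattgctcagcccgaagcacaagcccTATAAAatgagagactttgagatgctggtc
Cck: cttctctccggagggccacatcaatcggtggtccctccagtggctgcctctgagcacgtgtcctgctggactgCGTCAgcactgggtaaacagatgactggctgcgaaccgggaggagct
Npy: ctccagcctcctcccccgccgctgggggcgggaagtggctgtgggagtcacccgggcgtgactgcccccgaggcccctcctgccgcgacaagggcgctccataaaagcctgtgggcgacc
Pvalb, upstream start: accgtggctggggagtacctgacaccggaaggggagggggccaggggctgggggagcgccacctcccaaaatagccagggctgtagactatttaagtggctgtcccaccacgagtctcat
The full element stood 48 to 41 bases before the Sst start, and the core lies inside it on both strands. Vip held the core at 79 to 75 bases and TATAAA at 30 to 25 bases before its start. Cck held the core on the opposite strand at 47 to 43 bases. The Npy and Pvalb windows held none of these letters. Of 32841 windows of the same length upstream of all listed starts, 1.24% held TGACGTCA, 11.7% held TGACG and 6.34% held TATAAA. A promoter window was found for 9 of the 10 genes, in 12 windows. Among the windows not shown, only that of Gad2 held any of these letters, the core on the opposite strand at 33 to 29 bases. Vip and Gad2, which are not among the 4 genes that varied together, thus held the core. Npy and Pvalb, which are among them, did not. These matches are descriptions of the letters and not evidence of binding.

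Sequence shared with other genes was limited. Of the 31-base words in Gad1 transcripts, 4.01% also occur in another gene, mostly in the pseudogene Gad1-ps (3.78%), and 0% did so for Sst, Npy, Cck, Pvalb and Calb2. In GENCODE M21, exons of Reln overlap Gm10475 on the opposite strand and exons of Lhx6 overlap Gm27953 on the same strand, so a part of their counts is uncertain.

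Library totals ranged from 18106112 to 25899794 counts. Vehicle replicate 1 stood apart from the other libraries. It was the highest of the 10 libraries for 716 of 980 tested genes with a length under 1 kb (73.1%), against 130 of 1715 genes of 5 kb or longer (7.58%) and 25.1% of all tested genes. Results that rest on it are therefore given with and without it. Excitatory neuron markers, a check of the tissue, were all tested, with summed levels of 2080 to 2520 CPM in the 5 vehicle libraries, against 2270 to 2530 CPM in AM6545 libraries. CPM is the count per 1000000 library counts, here scaled by the TMM method. No marker list of another cell type had a member at 0 in every library.

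To compare levels between genes, transcript counts were divided by transcript length and scaled to 1000000 per library. On this per-length scale Cck and Sst led, with 608 ± 88.9 and 574 ± 113 (SD, n = 10). Cck lay above Sst in 8 of 10 libraries, and their ranges overlapped. Gad1 followed at 218 ± 38.8, and its range did not meet that of Sst. The ratio of Sst to Gad1 in per-length level was 5.36 in vehicle replicate 1 and 1.82 to 3.36 in the other 9 libraries. Npy had 149 ± 28.4, below Gad1 in 9 libraries. Calb2 (76.3 ± 21.6), Vip (54.6 ± 6.63), Pvalb (51.5 ± 10.5) and Gad2 (50.1 ± 8.18) formed a group with overlapping ranges, in which Vip exceeded Pvalb in 6 libraries and Pvalb exceeded Gad2 in 6. Reln (12.2 ± 2.67) and Lhx6 (10.5 ± 1.17) were lowest, with Reln above Lhx6 in 8 libraries and both below Gad2 in every library. The place of Reln depends on how its counts were divided among transcripts. A transcript of 11699 bases held 83.2% of them, yet counts over per-length level gave a length of 3.988 kb. Shorter minor transcripts therefore weigh heavily in the Reln level. Gad1 exceeded Gad2 in per-length level by 3.7 to 5.45 times.

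**Figure D1:**
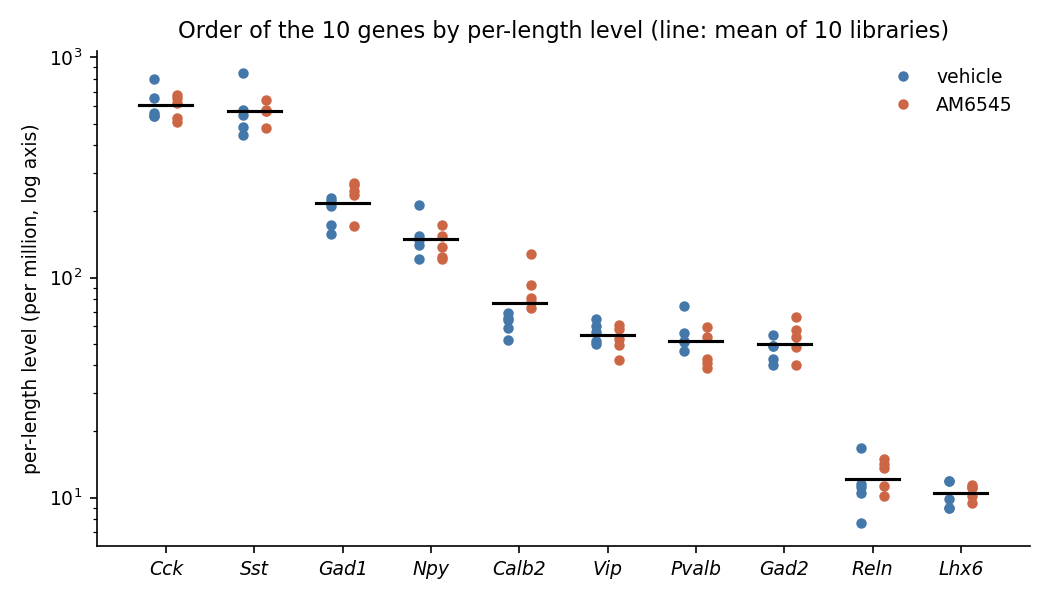
Per-length level of each of the 10 genes in each library (log axis), with vehicle libraries in blue and AM6545 libraries in red and a line at the mean of 10 libraries. Cck and Sst lie above Gad1 in every library, and Reln and Lhx6 lie below the other 8 genes.

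The vesicular GABA transporter Slc32a1, which loads GABA into vesicles in the same cells as Gad1 and Gad2, had a per-length level of 1.55 ± 0.225 (SD, n = 10). The neuregulin receptor Erbb4 had 4.14 ± 0.549 and the CB1 receptor gene Cnr1 32.9 ± 3.48. The vesicular glutamate transporter Slc17a7, a gene of excitatory neurons, had 585 ± 91.8. Slc32a1 thus stood below all 10 marker genes in mean per-length level.

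Gad1 (ENSMUSG00000070880.11, chromosome 2) encodes GAD67, the isoform found throughout the neuron. It had 287, 321, 286, 373 and 331 CPM in vehicle libraries 1 to 5 and 407, 431, 276, 371 and 384 CPM in AM6545 libraries 1 to 5. The third AM6545 library was the lowest of all 10, and 3 AM6545 libraries exceeded every vehicle library. The group difference, AM6545 minus vehicle, was 0.23 on the log2 scale (SE 0.12; edgeR quasi-likelihood test, unadjusted p = 0.0786, Benjamini-Hochberg adjusted p = 0.9998).

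Gad2 (ENSMUSG00000026787.4, chromosome 2) encodes GAD65, the isoform enriched at terminals. It had 116, 119, 99.6, 129 and 119 CPM in the 5 vehicle libraries, against 120, 149, 97.0, 134 and 150 CPM in AM6545 libraries. The third library was again lowest in each group, and the groups overlapped. AM6545 over vehicle gave 0.16 on the log2 scale (SE 0.12; edgeR unadjusted p = 0.21, adjusted p = 0.9998).

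Sst (ENSMUSG00000004366.5, chromosome 16), the somatostatin gene, had 359, 150, 185, 219 and 198 CPM in the 5 vehicle libraries, against 172, 239, 218, 210 and 205 CPM in AM6545 libraries. Vehicle replicate 1 was far above the rest, and the AM6545 values lay inside the vehicle range. The group difference, AM6545 minus vehicle, was -0.09 on the log2 scale (SE 0.18; edgeR unadjusted p = 0.635, adjusted p = 0.9998), and 0.15 without vehicle replicate 1 (unadjusted p = 0.205 in edgeR). Sst had the highest biological coefficient of variation among the 10 genes, 0.206.

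Npy (ENSMUSG00000029819.7, chromosome 6) encodes neuropeptide Y, carried by many dendrite-targeting and neurogliaform cells. It had 71.4, 32.1, 42.5, 46.2 and 41.9 CPM in the 5 vehicle libraries, against 34.5, 51.1, 40.8, 35.6 and 43.7 CPM in AM6545 libraries. Vehicle replicate 1 was again highest, and the groups overlapped. The log2 fold change of -0.19 (SE 0.17, edgeR unadjusted p = 0.297, adjusted p = 0.9998) became 0.01 without that library.

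Cck (ENSMUSG00000032532.8, chromosome 9), the cholecystokinin gene, had 324, 174, 199, 238 and 192 CPM in the 5 vehicle libraries, against 176, 241, 236, 187 and 214 CPM in AM6545 libraries. Vehicle replicate 1 was highest and vehicle replicate 2 lowest of the 10, as for Sst. AM6545 over vehicle gave -0.10 on the log2 scale (SE 0.15; edgeR unadjusted p = 0.532, adjusted p = 0.9998), and 0.07 without vehicle replicate 1.

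Vip (ENSMUSG00000019772.6, chromosome 10) encodes vasoactive intestinal peptide. It had 58.3, 36.6, 40.9, 48.9 and 43.4 CPM in the 5 vehicle libraries, against 46.4, 46.1, 33.9, 41.1 and 38.0 CPM in AM6545 libraries. Only AM6545 replicate 3 lay below the vehicle range. Its log2 fold change was -0.15 (SE 0.13, edgeR unadjusted p = 0.255, adjusted p = 0.9998), and -0.05 without vehicle replicate 1.

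Pvalb (ENSMUSG00000005716.17, chromosome 15) encodes parvalbumin, a calcium buffer of fast-spiking cells. It had 42.7, 23.2, 24.1, 26.7 and 27.5 CPM in the 5 vehicle libraries, against 19.8, 30.2, 21.9, 19.4 and 26.2 CPM in AM6545 libraries. Vehicle replicate 1 was high, and 3 AM6545 libraries lay below every vehicle library. The group difference, AM6545 minus vehicle, was -0.30 on the log2 scale (SE 0.17; edgeR unadjusted p = 0.0923, adjusted p = 0.9998), the lowest of the 10 genes, and -0.11 without vehicle replicate 1 (unadjusted p = 0.388 in edgeR).

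Calb2 (ENSMUSG00000003657.10, chromosome 8) encodes calretinin. It had 54.2, 39.3, 39.6, 52.1 and 47.0 CPM in vehicle (46.4 ± 6.88, SD, n = 5) and 55.5, 60.0, 69.4, 53.1 and 91.6 CPM in AM6545 libraries (65.9 ± 15.7). On this scale 4 of 5 AM6545 libraries exceeded every vehicle library, and AM6545 replicate 4 lay just under vehicle replicate 1. In per-length level all 5 AM6545 libraries (73.0 to 128) lay above all 5 vehicle libraries (52.0 to 69.0). That level carries no TMM scaling. Vehicle replicate 1, the highest vehicle library in CPM, stood there at 64.4, below vehicle replicates 4 (69.0) and 5 (65.3). The full separation thus depends on the scale used. Over all tested genes, 0.174% had every AM6545 library above every vehicle library in CPM and 0.181% in per-length level.

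The log2 fold change of Calb2 was 0.50 (SE 0.14; edgeR unadjusted p = 0.00297, adjusted p = 0.9998), so it did not pass the threshold. Its unadjusted p ranked 8 of 14358 genes. Without AM6545 replicate 5, the highest library, it was 0.36 (unadjusted p = 0.0118 in edgeR), and without vehicle replicate 1 it was 0.56.

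Genes of other cells that contain Calb2 were set beside it. Among 7 mossy cell markers, 5 were tested. Of these, Glp1r, the glucagon-like peptide 1 receptor gene, had 2.67, 2.70, 3.73, 2.54 and 2.85 CPM in the 5 vehicle libraries, against 3.15, 3.26, 5.13, 3.37 and 9.30 CPM in AM6545 libraries (log2 fold change 0.74, SE 0.27, edgeR unadjusted p = 0.0155, adjusted p = 0.9998). The other 4 tested markers had log2 fold changes of -0.18 (Ociad2), 0.04 (Ajap1), 0.11 (Calcrl) and 0.48 (Drd2), each with an unadjusted p above 0.05. The mean log2 CPM of these 5 was 3.5 to 3.68 in vehicle and 3.46 to 4.18 in AM6545 libraries. The summed level of all 7 was 317 to 391 and 307 to 352 CPM. Most of that sum was Ociad2, with 254 to 318 CPM in vehicle and 241 to 278 CPM in AM6545 libraries. The sum therefore says little about the markers of low level, such as Glp1r and Drd2.

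The protein kinase C delta gene Prkcd, 1 of 9 thalamic and habenular markers, had 25, 20.5, 29.6, 31.7 and 24.2 CPM in the 5 vehicle libraries, against 32.2, 35.9, 33.9, 25.8 and 57.8 CPM in AM6545 libraries (log2 fold change 0.50, SE 0.18, edgeR unadjusted p = 0.0144, adjusted p = 0.9998). AM6545 replicate 5 was thus the highest library for Calb2, Glp1r and Prkcd. It was also highest for the mossy cell marker Drd2 (2.13 CPM), but not for Ociad2, Ajap1 or Calcrl. The other 7 tested thalamic and habenular markers had log2 fold changes on both sides of 0, each with an edgeR unadjusted p above 0.05. They were 0.38 (Rgs16), 0.15 (Tcf7l2), -0.00 (Slc17a6 and Nwd2), -0.01 (Tac2), -0.22 (Lef1) and -0.34 (Gng8). For Gng8, 4 AM6545 libraries lay below every vehicle library. The mean log2 CPM of the 8 tested markers was 2.69 to 2.95 in vehicle and 2.55 to 3.06 in AM6545 libraries, and the summed level of all 9 was 76.9 to 91.9 and 79.5 to 110.0 CPM. The glutamate transporter Slc17a6 had 19.9 ± 4.13 and 19.9 ± 4.39 CPM (SD, n = 5 each), and the habenular gene Pou4f1 had 0 to 2 counts. With the mean of this list as a covariate, the Calb2 log2 fold change was 0.49. That mean had r = 0.228 with Calb2 over the libraries and was 2.84 in AM6545 replicate 5, inside the vehicle range. This fit therefore could not test the thalamic part of the Calb2 values. The mossy cell marker mean had r = 0.642 with Calb2 (permutation p = 0.0545, adjusted 0.686), and 0.321 without AM6545 replicates 2 and 5. Within vehicle and within AM6545 libraries that r was -0.974 and 0.815, so its sign differed between the groups. The mossy cell marker mean was not used as a covariate. The part of mossy or thalamic RNA in the Calb2 values was not tested beyond these figures.

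Reln (ENSMUSG00000042453.15, chromosome 5) encodes the secreted matrix protein reelin. It had 28.9, 18.2, 22.6, 27.0 and 25.5 CPM in the 5 vehicle libraries, against 29.5, 21.6, 28.6, 30.4 and 20.1 CPM in AM6545 libraries, with overlapping groups. Its log2 fold change was 0.09 (SE 0.14, edgeR unadjusted p = 0.529, adjusted p = 0.9998). The Cajal-Retzius cell markers comprised 6 genes in the table, of which Trp73 alone passed the filter, at 2.83 ± 1.03 CPM in the 5 vehicle libraries, against 2.57 ± 0.975 CPM in AM6545 libraries (SD, n = 5 each). The other 5 had at most 54 counts in a library. Eomes had 3 to 9 counts in vehicle and 9 to 54 in AM6545 libraries, Lhx1 2 to 8 and 1 to 20, Cxcr4 3 to 7 and 6 to 11, Ebf3 1 to 10 and 0 to 13, and Lhx5 0 to 6 and 0 to 5. The summed level of the 6 genes was 2.38 to 5.3 CPM in vehicle and 2.95 to 8.65 CPM in AM6545 libraries, and their part in the Reln values was not tested.

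Lhx6 (ENSMUSG00000026890.20, chromosome 2) encodes a transcription factor of interneurons born in the medial ganglionic eminence, among them the parvalbumin and somatostatin cells. It had 16.8, 18.8, 16.4, 15.2 and 20.2 CPM in the 5 vehicle libraries, against 17.7, 16.3, 16.0, 18.2 and 18.6 CPM in AM6545 libraries. This gene varied least among the 10, with a biological coefficient of variation of 0.123. Its log2 fold change was -0.01 (SE 0.11, edgeR unadjusted p = 0.938, adjusted p = 0.9998).

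**Figure D2:**
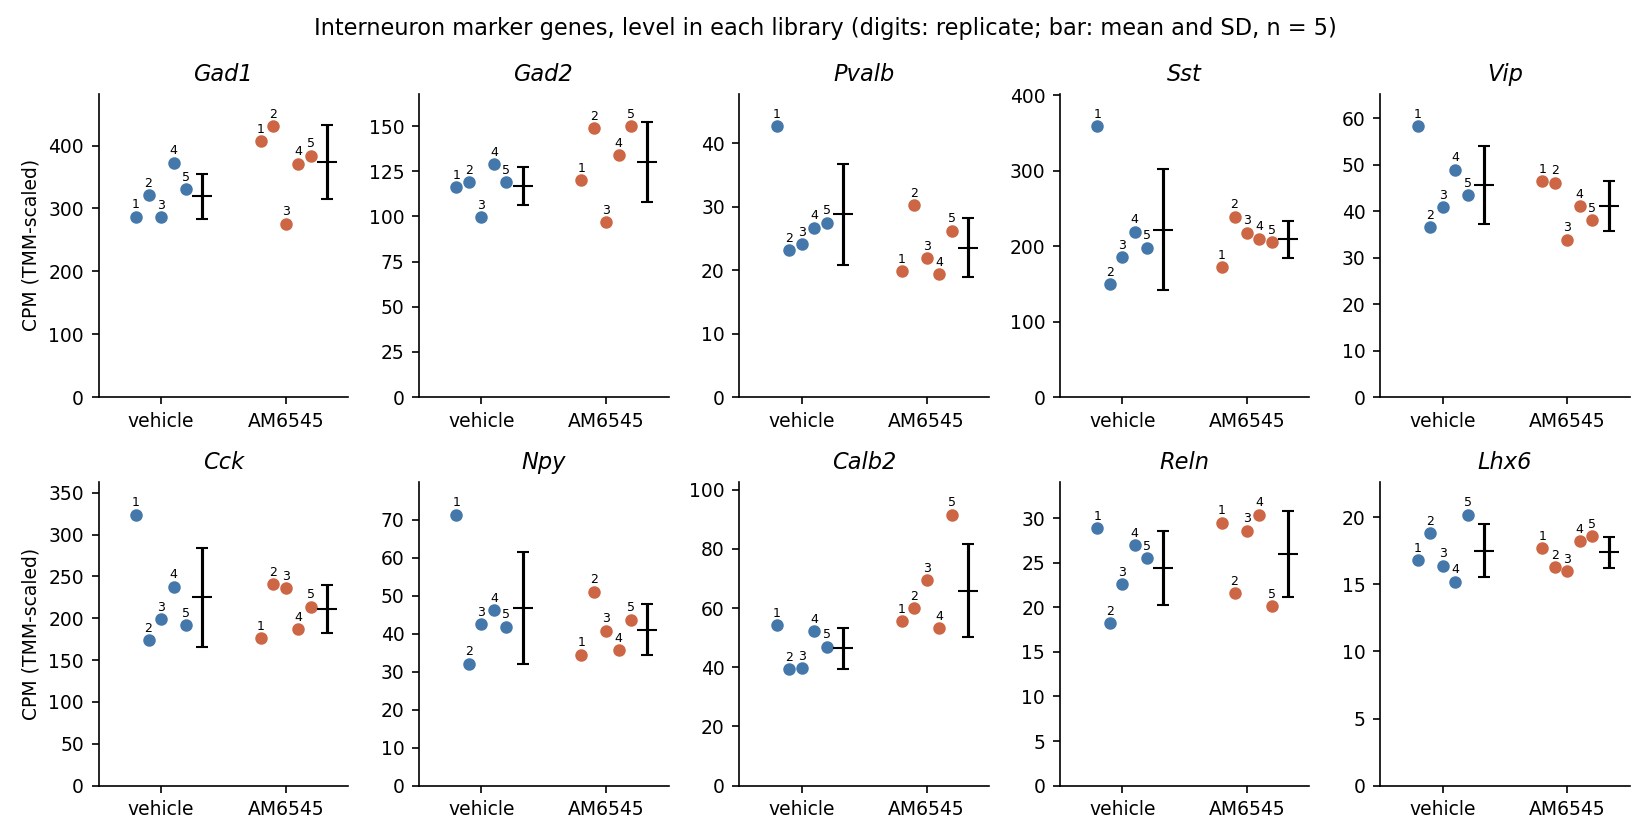
Level of each of the 10 genes in CPM in each library (points, with the replicate number beside them) and the mean and SD of each group of 5. Vehicle replicate 1 is the highest library for Sst, Cck, Npy, Vip and Pvalb, and AM6545 replicate 5 is the highest for Calb2.

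Over the 10 genes, 0 had an adjusted p under 0.05, against 0% of the 14358 genes tested with edgeR. At an unadjusted p under 0.05 there was 1 gene, Calb2, where 1.88% of all tested genes reached that level. The DESeq2 Wald test also gave 0 and 1, and limma-voom gave 0 and 3 (Calb2, Gad1 and Pvalb). Without AM6545 replicate 3, the lowest library for both decarboxylases, edgeR also gave 3, with Gad1 at 0.32 (unadjusted p = 0.00692) and Gad2 at 0.24 (unadjusted p = 0.0325) beside Calb2. It gave 2 without vehicle replicate 4 (Gad1 at 0.29) and 2 without vehicle replicate 2 or AM6545 replicate 2 (Pvalb at -0.37 and -0.40), and no adjusted p passed. The share over all tested genes is given for the main edgeR fit alone. The median log2 fold change of the 10 genes was -0.05, with 4 above and 6 below 0, beside -0.0057 over all tested genes, of which 48.1% were above 0. Standard errors of the 10 genes were 0.11 to 0.18, beside a median of 0.13 over all tested genes.

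The other genes of the GABA and interneuron programme were counted in 4 lists of 66 genes, of which 61 passed the filter. With edgeR 0 had an adjusted p under 0.05 and 1 an unadjusted p under it (DESeq2 0 and 2, limma-voom 0 and 5). Over all genes tested in the main edgeR fit the shares were 0% and 1.88%. No such share is given for the other tools or for the fits without a library. The unadjusted count was 4 without vehicle replicate 2 or AM6545 replicate 3, 3 without vehicle replicate 1 or AM6545 replicate 5, and 2 without vehicle replicate 3 or AM6545 replicate 1 or 2. Their median log2 fold change was 0.028, with 37 above and 24 below 0. Among 8 genes of GABA synthesis, packaging and uptake the median was 0.089, with 5 above 0. Slc32a1 had 2.11 ± 0.192 CPM in the 5 vehicle libraries, against 2.35 ± 0.349 CPM after AM6545 (SD, n = 5 each), a log2 difference of 0.15 (SE 0.19).

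Among 14 tested transcription factors the median log2 fold change was 0.109, with 10 above and 4 below 0.

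The 25 tested markers of other interneuron classes had a median log2 fold change of 0.012, with 14 above and 11 below 0. Erbb4 had 20.1 ± 1.71 CPM in the 5 vehicle libraries, against 21 ± 1.63 CPM in AM6545 libraries, and Cnr1, the gene of the receptor that AM6545 blocks, had 96.7 ± 9.73 and 99.4 ± 4.47 CPM (SD, n = 5 each). Among 14 tested receptors for the peptides and reelin the median was 0.003, with 8 above and 6 below 0. None of the 4 lists held a gene past the adjusted threshold in either direction.

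**Figure D3:**
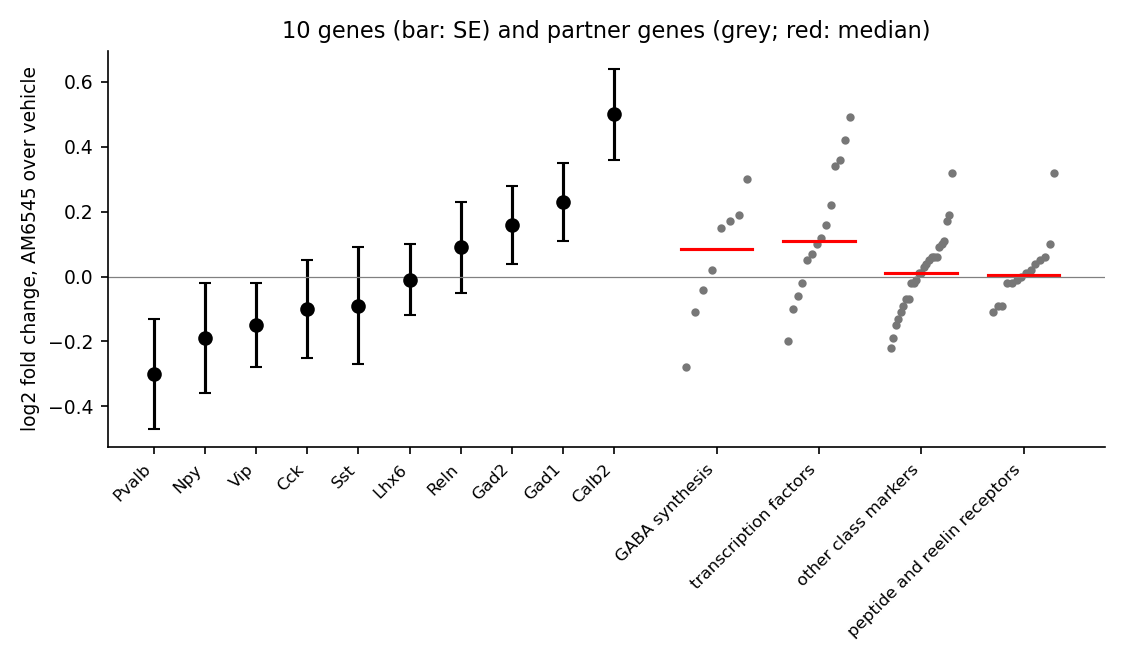
Log2 fold change of AM6545 over vehicle for the 10 genes (black, bars give the standard error) and for the tested genes of the 4 partner lists (grey, red line at the median). Calb2 at 0.50 is the highest of the 10 genes and Pvalb at -0.30 the lowest, and the 4 list medians lie between 0.003 and 0.109.

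The transcript table held 48 transcripts of the 10 genes, of which 38 had counts and 20 were tested. With edgeR 0 had an adjusted p under 0.05 (also 0 with DESeq2 and limma-voom), where 0.00314% of all 31848 tested transcripts did. At an unadjusted p under 0.05 there was 1, the Calb2 transcript Calb2-201 (log2 fold change 0.51, SE 0.16, edgeR unadjusted p = 0.00999, adjusted p = 0.9999), against 1.97% of all tested transcripts. That count was 3 without vehicle replicate 4, AM6545 replicate 2 or AM6545 replicate 3, and 2 without vehicle replicate 2. The share over all tested transcripts is given for the main edgeR fit alone. Sst and Npy had 1 annotated transcript each.

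Of the other genes, Gad2, Vip, Cck and Calb2 took 95.5% or more of their counts from 1 transcript, and Pvalb took 96.4% from Pvalb-201. Gad1 counts were divided almost evenly, with 50.3% in Gad1-201 and 48.7% in Gad1-206. Reln took 83.2% from Reln-207, the transcript of 11699 bases, and 15.3% from Reln-205. Lhx6, the steadiest gene in total, had the widest range over libraries in the share of its most abundant transcript. Lhx6-204 held 49.4% of its counts summed over the 10 libraries but from 0 to 88.0% in single libraries and was at 0 in 3, while Lhx6-205 held 0 to 81.8% and was at 0 in 7. The error of dividing reads among similar transcripts is not given in these tables.

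Covariation over the 10 libraries was examined for all 45 pairs of the genes, as the Pearson r of log2 CPM with permutation p-values adjusted over the 45. In all, 6 pairs passed an adjusted p of 0.05, all with a positive r. The smallest absolute r called was 0.83, a size that 13.3% of these pairs reached and 1.9% of all pairs of tested genes. The 13.3% are the 6 called pairs themselves, since the size was taken from them. All pairs of tested genes include genes of every length. The median r was 0.172 for the 45 pairs and -0.003 for all pairs.

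The pairs fell on 2 sets of genes. The first, with 5 pairs, linked Sst, Cck, Npy and Pvalb. Cck and Npy had r = 0.943 (n = 10, permutation p = 0.00014, adjusted 0.00315) and rho = 0.927 (permutation p = 0.00041, adjusted 0.0126), with r = 0.813 without vehicle replicates 1 and 2. Sst and Cck had r = 0.939 (n = 10, permutation p = 9e-05, adjusted 0.00315) and rho = 0.915 (permutation p = 0.00056, adjusted 0.0126), with r = 0.835 without the same libraries. Within vehicle and within AM6545 libraries r was 0.97 and 0.871 for Cck and Npy, and 0.977 and 0.848 for Sst and Cck.

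Sst and Npy had r = 0.929 (n = 10, permutation p = 0.00047, adjusted 0.00641) and rho = 0.806 (permutation p = 0.00726, adjusted 0.0653), with r = 0.682 without vehicle replicates 1 and 2. Pvalb and Npy had r = 0.926 (n = 10, permutation p = 0.00057, adjusted 0.00641) and rho = 0.842 (permutation p = 0.0038, adjusted 0.0427), with r = 0.791 without vehicle replicate 1 and AM6545 replicate 4. Pvalb and Cck had r = 0.83 (n = 10, permutation p = 0.00569, adjusted 0.0427) and rho = 0.721 (permutation p = 0.0238, adjusted 0.179), with r = 0.533 without those 2 libraries. By rank the Sst and Npy pair and the Pvalb and Cck pair therefore did not pass. Within vehicle and within AM6545 libraries r was 0.992 and 0.786 for Sst and Npy, 0.943 and 0.976 for Pvalb and Npy, and 0.927 and 0.758 for Pvalb and Cck.

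The sixth pair was Gad1 and Gad2, with r = 0.845 (n = 10, permutation p = 0.00169, adjusted 0.0152) and rho = 0.879 (permutation p = 0.00119, adjusted 0.0178). It was 0.718 without AM6545 replicates 2 and 3, and 0.812 and 0.832 within vehicle and AM6545 libraries. The lowest r belonged to Cck and Lhx6 at -0.543 (n = 10, permutation p = 0.102, adjusted 0.384), followed by Npy and Lhx6 at -0.392 (adjusted permutation p = 0.752) and Sst and Lhx6 at -0.371 (adjusted permutation p = 0.799). Their rho was -0.648, -0.455 and -0.588, with adjusted permutation p-values of 0.322, 0.61 and 0.449.

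Without vehicle replicate 1, 0 of the 45 pairs passed (exact permutation over 9 libraries). The r was then 0.857 for Cck and Npy, 0.846 for Sst and Cck, 0.807 for Sst and Npy, 0.806 for Pvalb and Npy, 0.875 for Gad1 and Gad2 and 0.574 for Pvalb and Cck. The smallest adjusted exact permutation p among these was 0.0588. The Gad1 and Gad2 pair also missed the threshold without vehicle replicate 3 (r = 0.811), AM6545 replicate 2 (r = 0.795) or AM6545 replicate 3 (r = 0.792). Over 15 alternative settings, the Gad1 and Gad2 pair kept its call in 11. The Pvalb and Cck pair kept its call in only 6 of the 15.

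**Figure D4:**
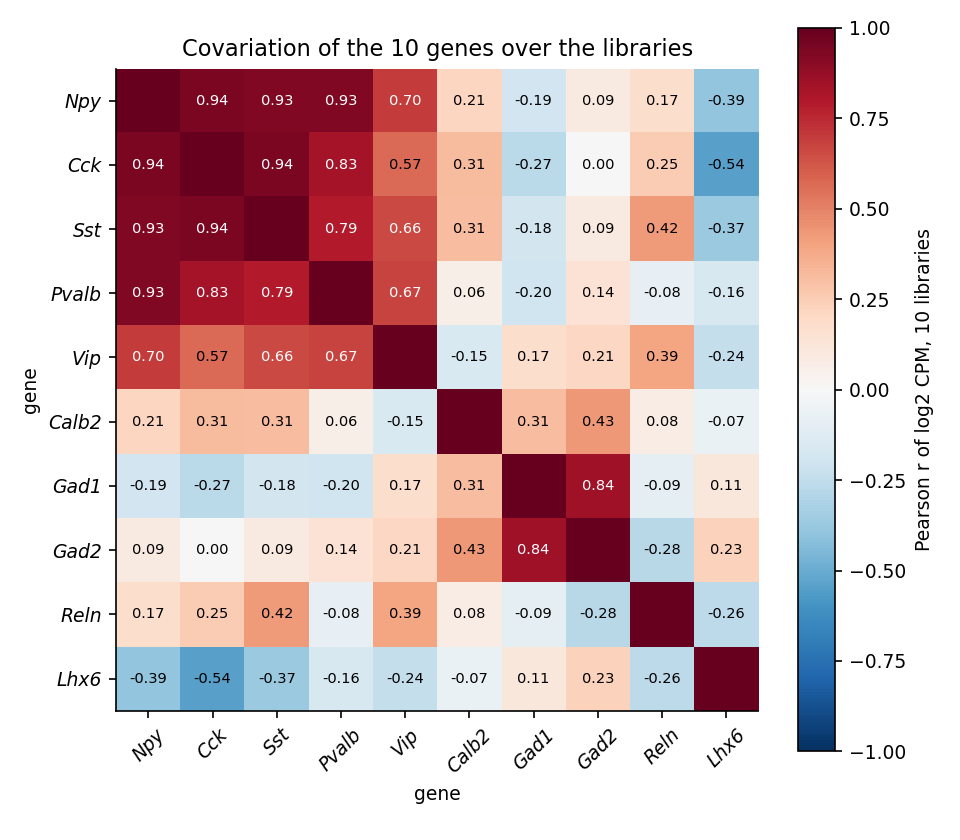
Pearson r of log2 CPM over 10 libraries for each pair of the 10 genes, from blue (negative) to red (positive). The block of Npy, Cck, Sst and Pvalb and the pair Gad1 and Gad2 hold the 6 pairs that passed, with r of 0.83 to 0.943.

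The 4 genes of the first set have short transcripts, from 0.566 kb for Npy to 0.976 kb for Pvalb, while Gad1 and Gad2 measure 3.09 and 4.795 kb. In vehicle replicate 1, log2 CPM deviated from the mean of 10 libraries by 0.77 for Sst, 0.59 for Cck, 0.73 for Npy and 0.74 for Pvalb. The median deviation of the 980 tested genes under 1 kb was 0.49 in that library and -0.11 for the genes of 5 kb or longer. Gad1 deviated there by -0.26 and Gad2 by -0.07. In AM6545 replicate 1 the short genes had a median of -0.27, and the 4 marker genes had -0.28 to -0.36. Other libraries matched less closely. In vehicle replicate 4 the short-gene median was -0.06, and the 4 genes had 0.06 to 0.15. In AM6545 replicate 3 it was 0.09, with Pvalb at -0.22, Npy at -0.07, Sst at 0.06 and Cck at 0.14. In AM6545 replicate 4 it was -0.16, with the 4 genes from -0.40 (Pvalb) to 0.0 (Sst).

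Each gene was then related to the mean log2 CPM of the genes under 1 kb, without the 10 genes themselves, in 10 relations chosen after the data were seen. Npy had r = 0.893 (n = 10, permutation p = 0.00194) and rho = 0.733, Cck r = 0.862 (permutation p = 0.00311), Sst r = 0.853 (permutation p = 0.0053) and Pvalb r = 0.851 (permutation p = 0.00441), each with an adjusted p of 0.0132. The rho of Npy was joined by 0.782 for Cck, 0.661 for Sst and 0.636 for Pvalb, with permutation p-values of 0.0206, 0.0109, 0.044 and 0.0549 in that order of genes, and by rho none passed (smallest adjusted permutation p = 0.103). Without vehicle replicate 1 and AM6545 replicate 1 the r values were 0.649, 0.541, 0.497 and 0.454. Without vehicle replicate 1 alone they were 0.717, 0.652, 0.591 and 0.609, and none passed (exact permutation over 9 libraries). Gad1 had r = -0.462 (adjusted permutation p = 0.356). Whether transcript length sets these relations was not tested.

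**Figure D5:**
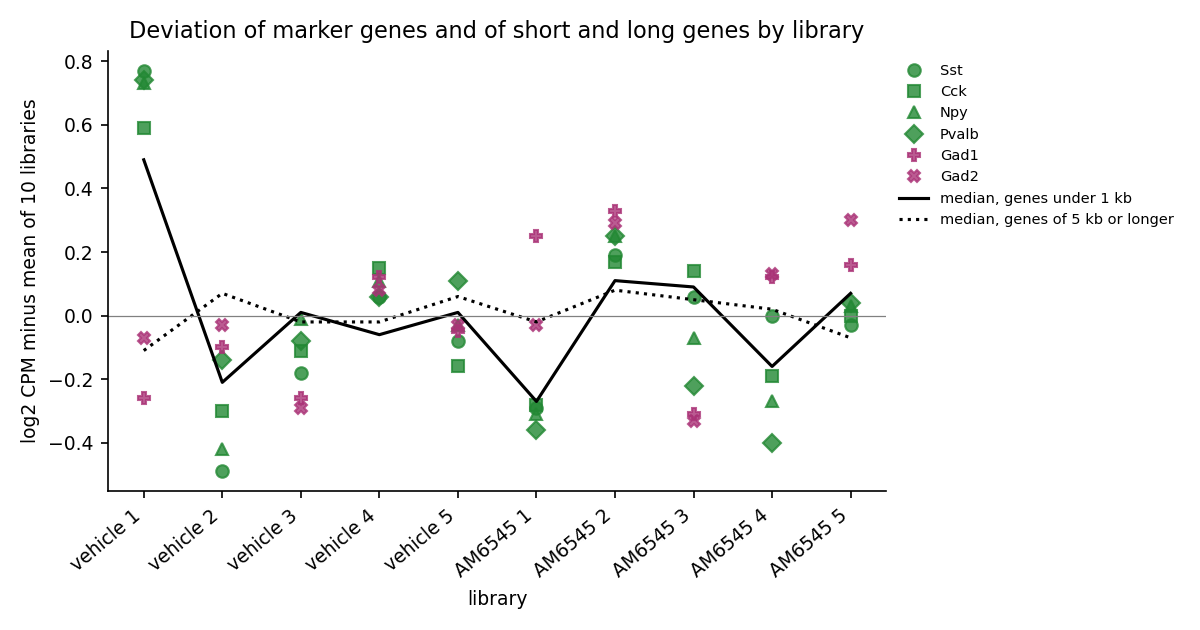
Log2 CPM minus the mean of 10 libraries for Sst, Cck, Npy and Pvalb (green), Gad1 and Gad2 (purple) and the median of tested genes under 1 kb (solid line) and of 5 kb or longer (dotted line). In vehicle replicate 1 the 4 green genes lie at 0.59 to 0.77 and the short-gene median at 0.49.

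The genes of all kinds with the most similar pattern were found by Pearson r of log2 CPM over the 10 libraries among 14324 genes. For Sst they were Rpl8 (0.985) and Commd7 (0.977), for Cck Malsu1 (0.972) and Rpl19 (0.971), for Npy Timm17a (0.992) and Mrpl55 (0.985) and for Pvalb Selenok (0.98) and Mrpl58 (0.975). These encode, among others, ribosomal and mitochondrial proteins found in most cells and not interneuron proteins. For Gad1 they were Usp5 (0.983) and Mtrex (0.98) and for Gad2 Hspa4l (0.931) and Psip1 (0.928). Vip was nearest Rnaseh2a (0.963) and Polr1e (0.963), Calb2 nearest Uox (0.89) and Gpr4 (0.889), Reln nearest Ptprn (0.947) and Prr3 (0.916), and Lhx6 nearest Topbp1 (0.948) and Ccdc8 (0.888). All share the same 10 libraries, and the nearest of so many genes is high by selection.

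The 10 genes were also related to library depth and to the mean levels of 12 marker lists of other cells, 130 relations in all. None passed an adjusted p of 0.05. The smallest unadjusted p belonged to Reln and the microglia markers (r = 0.855, n = 10, permutation p = 0.00219, adjusted 0.285), with a rho of 0.855 (adjusted permutation p = 0.216). Without vehicle replicate 3 that relation had r = 0.964 (adjusted exact permutation p = 0.00752). Leaving out any other single library gave no relation that passed. Without vehicle replicate 2 and AM6545 replicate 5 the r of Reln and the microglia markers was 0.647. Microglia markers had a mean log2 CPM of 5.91 to 6.25 in vehicle and 5.88 to 6.32 in AM6545 libraries, and the part of these cells in the Reln values was not tested.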

How the data were processed

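Total RNA from hippocampal synaptoneurosomes was made into libraries using the SMARTer Ultra Low Input chemistry, as stated per the labels. What the authors deposited were estimated counts per gene (22255) and per transcript (102392) for 10 libraries. Salmon 1.5.2 and the build mm10 are named in the submitters' processing notes. The annotation release and use of strand are not given in the sources used here. Symbols were matched for 22155 genes, and lengths came from GENCODE M21 for 101527 transcripts. Only 11 genes carried the same version there, so its gene coordinates are not printed.

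Estimated counts were rounded. AM6545 was compared with vehicle in edgeR 4.0.16 (R 4.3.3) with TMM scaling, filterByExpr (minimum count 10, minimum total 15), robust quasi-likelihood tests and Benjamini-Hochberg adjustment over all genes or transcripts, with a two-sided threshold of 0.05. Log2 CPM used a prior count of 2. Correlations had two-sided permutation tests with 100000 resamples, or all 362880 orders where 9 libraries remained (Python 3.11.15, numpy 2.4.6, scipy 1.17.1). The code was tested on simulated data. Alternatives were other scalings, filters and tools (DESeq2 1.42.0, limma 3.58.1), a replicate block and leaving out each library. Reads were amplified and carry no molecular identifiers, so an error taken from a count alone would cover counting only. The standard errors and SDs given here come from the fits and the libraries and include the spread between libraries.

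The 10 genes and the lists were chosen with earlier results of these data known. Named besides the 10 were partner genes with an unadjusted p under 0.05, Slc32a1, Erbb4 and Cnr1, the 2 genes most like each gene, the 5 highest and 3 lowest pairs, the most abundant transcripts and any with an unadjusted p under 0.05. Prkcd, Glp1r and the other cell markers named with values, the pair Pvalb and Cck, and the minor transcripts were named after their values were seen. Values of 2 partner genes that this rule names are not reported here. Replicate numbers 1 to 5 occur in both groups. Same-numbered libraries correlated between -0.186 and 0.393 in their deviations. Vehicle libraries 3, 4 and 5 correlated most with the AM6545 library of their own number, and vehicle libraries 1 and 2 with AM6545 library 5. The libraries are not treated as pairs, and a fit with the number as a block is given as an alternative.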

Additional observations from a re-analysis of the deposited data

Results flagged for a closer look

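In 44 tests of single libraries within a group of 5, where chance would give about 2.2 (1 in 20 groups), 5 values stood apart by their gap to the nearest library. Pvalb had 42.7 CPM in vehicle replicate 1, against 23.2 to 27.5 CPM in the other vehicle libraries. Choroid plexus markers had a mean log2 CPM of 1.2 in vehicle replicate 4, against 5.61 to 6.04 in the others. Striatal markers had 4.69 in vehicle replicate 2, against 4.79 to 4.82. Endothelial markers had 2.14 in AM6545 replicate 5, against 1.17 to 1.42, and this library was also the highest for Calb2. Red blood cell markers had 7.44 in AM6545 replicate 3, against 5.38 to 5.91.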

How the results depend on the processing

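In all alternatives run, 0 of the 10 genes, 0 partner genes and 0 member transcripts had an adjusted p under 0.05, and Calb2 kept a log2 fold change of 0.36 to 0.57 (unadjusted p 0.000416 to 0.0118). Directions turned for genes near 0. Sst was 0.06 with limma-voom and 0.07 with the short-gene mean as a covariate, and -0.2 to 0.15 when each library was left out. Cck was 0.01 with that covariate and -0.18 to 0.07 when libraries were left out. Npy ranged from -0.3 to 0.01 and Lhx6 from -0.05 to 0.05. With the replicate number as a block, Calb2 was 0.49 (unadjusted p = 0.00682 in edgeR) and 0 of the 10 genes passed, and the block changed no other call. Leaving out libraries gave 0 to 6 covarying pairs and 0 to 1 relations with marker lists. The order by per-length level kept 8 of 10 places with median transcript lengths, where Gad2 and Vip exchanged places.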
